A study of Mus musculus with 24 samples.

Results

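Muscle stem cells of uninjured muscle were compared between a Lamp2a knockout and wild type by bulk RNA sequencing. All libraries with these labels were taken, 4 KO and 4 WT, which makes 8 of the 24 libraries of the series. Genes with a normalised read count of at least 1 in at least 4 of these 8 libraries were tested, 12668 of the 17111 genes in the table, and 4443 were not. The study crossed 2 genotypes with 3 days, uninjured muscle (day 0) and muscle taken 1 or 4 days after injection of cardiotoxin, a venom component that destroys muscle fibres. KO cells (genotype label L2A-Pax7CreER) came from mice whose titles name Pax7CreER, an inducible Cre recombinase made in cells that express Pax7. WT cells carry the label L2A-WT with no Cre named, so effects of the Cre allele and of Lamp2a loss cannot be told apart. Both groups are primary cells from uninjured muscle and share one batch label, and the labels used here give neither age nor the number of mice. They do not say that replicates came from separate mice, so a p-value here reflects spread among libraries alone, which may be technical. In bulk libraries, fewer cells of a type and less RNA per cell cannot be told apart.

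Lamp2a is a splice form of Lamp2. It encodes the receptor at the lysosomal membrane through which single proteins carrying a recognition motif are taken up, a route called chaperone-mediated autophagy. Hspa8, the constitutive cytosolic chaperone, finds these substrates, and Hsp90 helps hold the receptor complex at the membrane. Uninjured muscle stem cells rest in quiescence beneath the basement membrane of the fibre, express Pax7 and Calcr, and leave quiescence when the muscle is damaged.

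The 8 libraries held 11.58 to 16.88 M reads in genes, and a count of 3 corresponded to a normalised read count of 0.193 to 0.32. Correlations of log2 values were 0.821 to 0.856 between KO libraries, 0.836 to 0.859 between WT libraries and 0.803 to 0.834 between genotypes. Each of 18 muscle stem cell markers stood above the level of 3 counts in all 8 libraries, the lowest value being 7.69 for Cxcr4, and their summed level was 4106 to 4356 in KO and 3325 to 4810 in WT. Mitochondrially encoded transcripts made up 7.27 to 13.3% of counts in KO, with 13.3% in KO replicate 4, and 6.96 to 9.32% in WT.

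Lamp2, counted over all its splice forms, is the targeted gene but cannot show the loss of Lamp2a alone. Its normalised read counts were 588, 602, 529 and 608 in KO libraries and 509, 870, 628 and 698 in WT libraries. The groups overlapped, with WT replicate 1 below every KO library. The log2 difference was −0.19 ± 0.17 (SE, n = 4 each), with p = 0.314 in a two-sided exact permutation test whose smallest possible p is 0.0286 and an adjusted p of 0.673 by limma.

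Of the 12668 genes tested, 94 were higher in KO (0.742%) and 95 were lower (0.75%) at an adjusted p under 0.05 (limma on log2(value + 1), two-sided, Benjamini-Hochberg over all genes tested). Together they were 189 genes (1.49%). A model of all 24 libraries called 6.46% of the genes higher and 6.98% lower, but it used 1 variance per gene for all days. When each group had its own variance, the uninjured groups had the lowest weights, 0.379 in WT and 0.374 in KO, against 0.802 to 2.55 elsewhere. A low weight means more spread, so the larger shares are not read as support for more calls. The shares of the 8-library model, 0.742% and 0.75%, are the background for the counts of list members below, beside a median log2 difference over all genes of −0.03. At an unadjusted p under 0.05, 813 genes were higher (6.42%) and 971 lower (7.66%), which is the background for the unadjusted counts. Fold changes on this scale understate the change of genes with low values. The genes that rose and those that fell differed in level. Those that were higher had a median normalised read count of 28.0 over the 8 libraries and a median log2 difference of 2.57. Those that were lower had a median of 148 and a median log2 difference of −1.30. In 19 of the 94 higher genes, WT libraries together held 3 counts or fewer, so that they entered the test through KO libraries alone. Higher genes with every WT value under 1 entered in the same way whatever their count, among them Acta1 and Prmt9. All 4 KO libraries lay above all 4 WT libraries for 3.76% of the genes tested and below them for 4.73%, and every gene past the threshold was among these. The counts depended on the libraries: with any 1 library left out, 29 to 52 genes were higher and 31 to 59 lower, and 21 and 23 passed in each of those 8 fits.

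**Figure D1:**
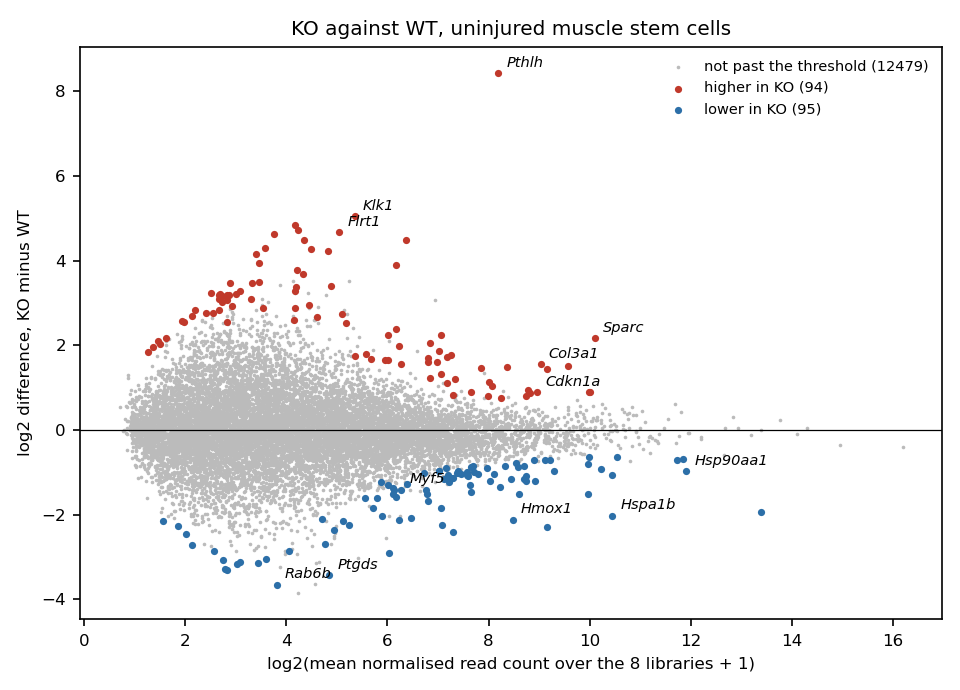
Each point is 1 of 12668 genes, placed by its mean normalised read count over the 8 uninjured libraries (log2 scale) and its log2 difference, KO minus WT. Red points are the 94 genes higher in KO and blue points the 95 lower ones; Pthlh stands alone at 8.43, and the blue points reach higher mean levels than most red ones.

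Pthlh showed the largest difference of the genes tested in the main model. It encodes parathyroid hormone-related protein, a secreted peptide that acts through the parathyroid hormone receptor. Its normalised read counts were 620, 464, 614 and 623 in KO libraries and 0.585, 0.401, 0.5004 and 1.36 in WT libraries. Every KO library was far above every WT library. The log2 difference was 8.43 ± 0.32 (limma, adjusted p = 6.74e-08), and it passed in all 8 fits that left out 1 library. Of the 19 tested genes of the parathyroid hormone and calcitonin axis, Pthlh was the 1 that rose and none fell (limma; 3 higher and 3 lower at an unadjusted p under 0.05), with a list median of −0.03 (−0.16 to 0.04 with 1 library left out). Calcr, the calcitonin receptor that holds these cells in quiescence, averaged 262 ± 51.4 in KO and 211 ± 22.9 in WT (SD, n = 4 each) and did not pass (adjusted p = 0.504).

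Some tissue kallikreins, secreted serine proteases encoded side by side in the mouse, had most of their counts in KO libraries. Values of 6 of these genes were looked up after some had been seen among the calls, and 4 were tested. Klk1 stood at 126, 15.6, 63.0 and 108 in KO libraries and at 0.172, 0.183, 6.27 and 0.233 in WT libraries, a log2 difference of 5.04 ± 0.81 (limma, adjusted p = 0.0129). The groups did not overlap, but KO libraries varied and WT replicate 3 stood above the other WT libraries. Klk1b22 had 0 counts in WT and averaged 9.30 ± 3.70 in KO, at least 37.3-fold higher (against 3 counts per library). Klk1b24 also had 0 counts in WT and averaged 11.2 ± 10.9 in KO, at least 45.0-fold higher by the same floor. Klk1b21 averaged 34.0 ± 19.9 in KO, and WT libraries held 1 count in all. The untested Klk1b1 and Klk1b27 were at or near 0 in some KO libraries, Klk1b1 at 0.0332, 0.0358, 5.94 and 7.81 and Klk1b27 between 0.0828 and 30.4, with 0 and 1 counts over the WT libraries. These paralogs are similar in sequence, so reads may be divided between them.

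Other genes that rose came from no shared list, and several were near 0 in some WT libraries. Flrt1, a cell adhesion receptor, stood at 120, 20.5, 28.4 and 82.2 in KO libraries and at 0.653, 2.08, 0.193 and 1.43 in WT libraries, a log2 difference of 4.68 ± 0.68 (limma, adjusted p = 0.00704). The lowest KO library was well above the highest WT library. Arg2, a mitochondrial arginase, averaged 152 ± 31.0 in KO and 11.7 ± 12.7 in WT, and Neu2, a cytosolic sialidase, averaged 129 ± 33.5 in KO and 12.4 ± 9.24 in WT. Their log2 differences of 4.49 and 3.89 passed (adjusted p = 0.0230 and 0.0319), but in only 3 and 2 of the 8 fits with 1 library left out. Frmd4b, a scaffold protein, averaged 51.3 ± 12.6 in KO and 3.60 ± 5.84 in WT, where replicate 4 alone stood at 12.3. Gpx7, a peroxidase of the endoplasmic reticulum, averaged 32.4 ± 3.45 in KO and 2.51 ± 3.72 in WT (log2 difference 3.78 ± 0.70, adjusted p = 0.0245). Prmt9, an arginine methyltransferase, averaged 19.8 ± 9.06 in KO and 0.265 ± 0.121 in WT, and so entered the test through KO libraries alone. Igf1, a growth factor that drives muscle growth, averaged 77.3 ± 25.04 in KO and 22.8 ± 5.18 in WT (log2 difference 1.68 ± 0.33, adjusted p = 0.0285). Gdf15, a stress-induced cytokine, averaged 167 ± 44.9 in KO and 53.1 ± 22.2 in WT (log2 difference 1.70 ± 0.32, adjusted p = 0.0260).

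Copies of other genes were among those that rose. Eno1b, a retrocopy of the glycolytic enolase gene Eno1, averaged 52.9 ± 12.3 in KO and 4.13 ± 1.32 in WT, while Eno1 itself averaged 124 ± 25.7 in KO and 263 ± 37.9 in WT (log2 differences 3.40 ± 0.44 and −1.09 ± 0.20, adjusted p = 0.00355 and 0.0254). Reads may be divided between both copies, and their sum was 177 ± 30.4 in KO and 267 ± 39.2 in WT. Ndufs5-ps, a copy of a complex I subunit gene, averaged 35.1 ± 7.40 in KO and 0.501 ± 0.929 in WT, where replicate 4 held all 28 counts. Its sum with the gene Ndufs5 was 111 ± 22.4 in KO and 56.7 ± 15.3 in WT. Processed pseudogenes made up 7 of the 94 higher genes, 1 of the 95 lower genes and 428 of all genes tested.

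Extracellular matrix genes were among the abundant transcripts that rose. Sparc, a collagen-binding glycoprotein, stood at 1913, 1461, 1886 and 1918 in KO libraries and at 280, 403, 476 and 446 in WT libraries. The groups were far apart, and the log2 difference was 2.18 ± 0.18 (limma, adjusted p = 0.00016). Col3a1, a fibrillar collagen chain, stood at 789, 703, 807 and 808 in KO libraries and at 294, 270, 227 and 270 in WT libraries. Its groups were far apart and tight, with a log2 difference of 1.55 ± 0.14 (adjusted p = 0.000349). Col5a3, a collagen chain counted among the genes of quiescent stem cells, averaged 167 ± 33.0 in KO and 53.6 ± 9.44 in WT (log2 difference 1.61 ± 0.23, adjusted p = 0.00701). Sparc, Col3a1 and Col5a3 passed in all 8 fits with 1 library left out.

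Of 20 collagen genes tested, 3 were higher (Col3a1, Col5a3 and Col1a1) and none lower (limma; 8 higher and 0 lower at an unadjusted p under 0.05; edgeR 2 and 0, DESeq2 7 and 0), with a median log2 difference of 0.79. Of 37 matricellular and basement membrane genes, 5 were higher (Sparc, Dcn, Fbln2, Fbn1 and Lama4) and none lower (12 higher and 2 lower at an unadjusted p under 0.05; edgeR 4 and 0, DESeq2 8 and 1), with a median of 0.40. With 1 library left out, 2 to 3 collagens and 1 to 5 matricellular genes were higher. Dcn, a proteoglycan that binds collagen and TGF-beta, stood at 942, 876, 910 and 570 in KO libraries and at 474, 208, 391 and 205 in WT libraries. The lowest KO library, replicate 4, was close to the highest WT library, replicate 1. Fbln2, an elastic fibre protein, was 77.7 to 153 in KO libraries and at most 34.2 in WT libraries. Fbn1, which builds microfibrils, averaged 158 ± 7.87 in KO and 68.9 ± 21.1 in WT. Lama4, a laminin chain of basement membranes, averaged 29.5 ± 8.50 in KO and 3.93 ± 0.944 in WT. The log2 differences of Dcn, Fbln2, Fbn1 and Lama4 were 1.44, 2.38, 1.23 and 2.602 (adjusted p = 0.0279, 0.0183, 0.0254 and 0.0265). They passed in 3, 5, 1 and 1 of the 8 fits with 1 library left out.

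**Figure D2:**
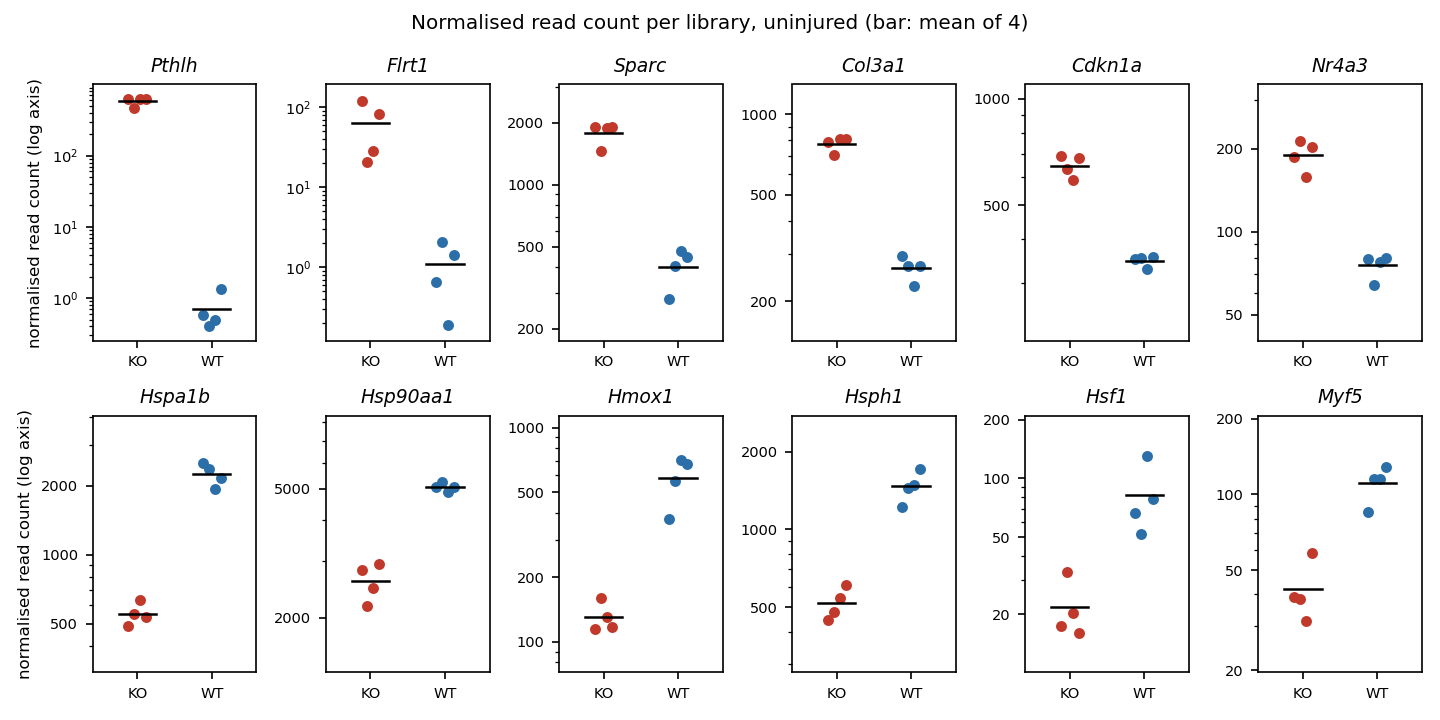
Normalised read counts (log axis) of 12 genes in each uninjured library, with KO libraries in red on the left and WT libraries in blue on the right; bars are means of 4 libraries. The groups do not overlap for any of the 12 genes, and the log2 difference runs from 0.89 for Cdkn1a to 8.43 on the log2 scale for Pthlh.

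Several of these matrix genes are also markers of fibro-adipogenic progenitors, the mesenchymal cells of muscle. Of 14 such markers tested, 5 were higher (Dcn, Col3a1, Col1a1, Gsn and Fbn1) and none lower (limma; 6 and 0 at an unadjusted p under 0.05; edgeR 3 and 0, DESeq2 6 and 0), with a median of 0.77. A positive log2 difference was found for 12 of the 14, beside 48.5% of all genes. With 1 library left out 1 to 3 passed, and 2 passed without the mean-variance trend. KO sums over the 16 markers in the table were 3307 to 3866 and WT sums 1779 to 2243, with no overlap. These sums include the 5 genes called higher, so the gap restates those calls in part. Serping1, the largest marker of the sum in both genotypes, did not pass. Its values overlapped, with 827 in KO replicate 2 and 922 in WT replicate 3. Pdgfra, the surface receptor that defines these cells, was at or near 0 in all libraries except KO replicate 1. Its values were 1.76, 0.0358, 0.0276 and 0.137 in KO libraries and 0.0344, 0.0365, 0.0385 and 0.0332 in WT libraries. Ly6a, another surface marker, was 1 of the 2 tested markers with a negative log2 difference. It stood at 97.4, 0.328, 24.7 and 4.82 in WT libraries and at 0.630, 11.99, 0.0276 and 0.228 in KO libraries. Whether other cells contributed to the matrix difference was not tested.

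Markers of other cell types gave a mixed picture. The smooth muscle and pericyte sum was 497 to 1002 in KO libraries, against 322 to 429 in WT libraries. Its largest marker was Acta2, the smooth muscle actin. This was the 1 of 8 tested markers that was higher, so the sum restates that call in part. Of the 8, 6 had a positive log2 difference and 2 a negative one. Acta2 stood at 634, 254, 220 and 279 in KO libraries and at 134, 80.03, 132 and 117 in WT libraries. The groups did not overlap, but KO replicate 1 was more than 2-fold above the other KO libraries, and the call was lost in each of the 8 fits with 1 library left out. The Schwann cell sum was 638 to 816 in KO libraries, against 315 to 581 in WT libraries, mostly from Pmp22, a membrane protein that other cells also express, which was the 1 of 8 tested markers that rose (log2 difference 0.87 ± 0.17, adjusted p = 0.0319). Sums overlapped between KO and WT for endothelial markers (794 to 993 and 907 to 1291), macrophage markers (24.9 to 56.5 and 18.6 to 114) and mature myofibre markers (106 to 276 and 82.1 to 150). The endothelial sum came mostly from Cav1, which averaged 709 in KO and 784 in WT, and some other markers were high in single WT libraries. Ly6c1 stood at 117, 16.8, 78.0 and 0.166 in WT libraries and at most at 8.17 in KO libraries. Of 7 endothelial markers tested none passed, and 5 had a negative log2 difference. The macrophage sum of 114 came from WT replicate 4, where Lyz2 stood at 86.5, against at most 1.685 in the other WT libraries. Ptprc, the common leukocyte antigen, was at or near 0 in all 8 libraries.

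**Figure D3:**
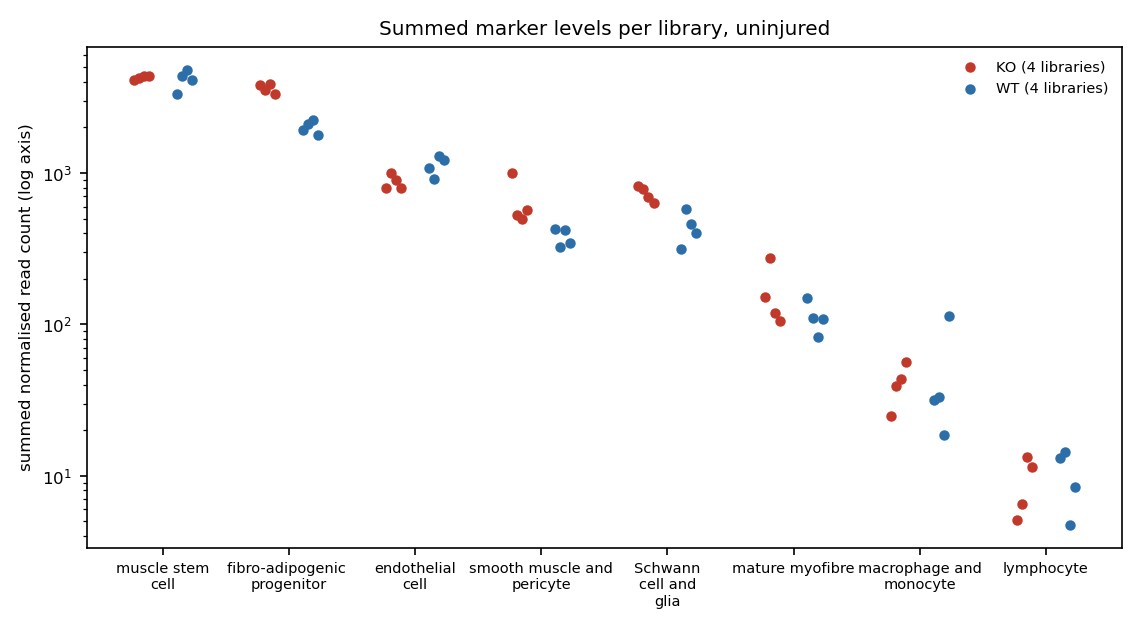
Summed normalised read count (log axis) of the markers of 8 cell types in each uninjured library, KO in red to the left of WT in blue. Muscle stem cell markers overlap between genotypes, while fibro-adipogenic progenitor, smooth muscle and Schwann cell sums are higher in every KO library. These higher sums include the markers called higher, among them Acta2 and Pmp22. Macrophage and lymphocyte sums are low in both, except for a macrophage sum of 114 in WT replicate 4.

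A pair of cell cycle inhibitors rose. Cdkn1a, which encodes p21 and is induced by p53, stood at 687, 632, 590 and 678 in KO libraries and at 351, 354, 329 and 356 in WT libraries. The values within each group differed little and the groups were well separated, with a log2 difference of 0.89 ± 0.13 (limma, adjusted p = 0.00704), and the call held in all 8 fits with 1 library left out. Cdkn1c, which encodes p57, averaged 57.6 ± 27.1 in KO and 8.95 ± 6.59 in WT (log2 difference 2.73 ± 0.58, adjusted p = 0.0407) that held in 1 of the 8 fits. Of 18 genes of G1 cyclins and their inhibitors, these 2 were higher and none lower (6 and 0 at an unadjusted p under 0.05; edgeR 1 and 0, DESeq2 5 and 0), with a median of 0.60. Of 20 p53 targets, Cdkn1a and Plk2, a stress-responsive kinase, were higher and none lower (5 and 2 at an unadjusted p under 0.05), with a median of 0.17 (0.09 to 0.42 with 1 library left out).

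Genes of mitosis were low in nearly all libraries, and 10 of the 30 on the list did not reach the level needed for testing. Of the 20 tested, 1 was higher, Nuf2, a kinetochore protein, and none lower. Nuf2 averaged 10.8 ± 6.71 in KO, while WT libraries held 3 counts in all, so it entered the test through KO libraries alone. Since low genes of this list could enter in that way, no median or count of signs is given for it. Mki67, a proliferation marker, stood at 43.4, 2.75, 0.304 and 3.24 in KO libraries and at 0.103, 2.23, 0.346 and 0.0997 in WT libraries, and did not pass (adjusted p = 0.396). KO replicate 1 alone stood clearly above the others for Mki67. Cenpf, a centromere protein, was highest in another library, KO replicate 3, at 36.2, and did not pass (adjusted p = 0.185).

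Immediate early genes are induced within minutes of a stimulus and during cell isolation, and 2 of them rose. Nr4a3, an orphan nuclear receptor, stood at 187, 213, 157 and 202 in KO libraries and at 79.8, 64.3, 77.7 and 80.1 in WT libraries, a log2 difference of 1.32 ± 0.19 (limma, adjusted p = 0.00704). The groups did not overlap. Nr4a2 of the same family averaged 196 ± 37.7 in KO and 89.8 ± 12.9 in WT (log2 difference 1.11 ± 0.20, adjusted p = 0.0245), and Nr4a1 averaged 107 in KO and 52.2 in WT but did not pass (adjusted p = 0.0898). Of 28 such genes tested, Nr4a2 and Nr4a3 were higher and none lower (8 and 1 at an unadjusted p under 0.05; edgeR 2 and 0, DESeq2 6 and 0), with a median of 0.48. A positive log2 difference was found for 22 of the 28, beside 48.5% of all genes, and 1 to 2 passed with 1 library left out.

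Among the lists examined, that of chaperones held the most genes that fell. Of 38 cytosolic and mitochondrial chaperone genes, 15 were lower in KO (background 0.75%) and none higher (limma; 30 lower and 1 higher at an unadjusted p under 0.05; edgeR 12 and 0, DESeq2 19 and 0), with a median log2 difference of −0.64. A negative log2 difference was found for 36 of the 38 and for 51.5% of all genes tested. All 4 KO libraries lay below all 4 WT libraries for 25 of the 38, beside 4.73% of all genes. With 1 library left out, 9 to 13 were lower and the median stayed between −0.73 and −0.61, whereas without the mean-variance trend 2 were lower.

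The inducible Hsp70 genes Hspa1a and Hspa1b fell most among the chaperones called. Hspa1b stood at 490, 551, 633 and 532 in KO libraries and at 2515, 2372, 1941 and 2148 in WT libraries, a log2 difference of −2.02 ± 0.13 (limma, adjusted p = 2.35e-05). Hspa1a stood at 137, 156, 222 and 281 in KO libraries and at 1027, 992, 918 and 846 in WT libraries, a log2 difference of −2.30 ± 0.21 (adjusted p = 0.000382). No KO library came near a WT library for either gene. Their transcripts are nearly identical, so reads may be divided between them, and the sum of both genes was 750 ± 103 in KO and 3190 ± 317 in WT.

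Some genes for proteins that work with Hsp70 fell, while others on the list did not pass, among them Hspa4, Dnaja2 and Stip1 with log2 differences of −0.54, −0.20 and −0.46. Hsph1, a nucleotide exchange factor for Hsp70, stood at 446, 480, 540 and 611 in KO libraries and at 1227, 1451, 1486 and 1721 in WT libraries (log2 difference −1.50 ± 0.15, adjusted p = 0.000726). Dnaja1 and Dnajb1, J-domain proteins that hand clients to Hsp70, averaged 909 ± 94.6 and 105 ± 15.7 in KO and 1885 ± 177 and 297 ± 87.4 in WT (log2 differences −1.05 and −1.46, adjusted p = 0.0031 and 0.0105). Hspa4l, another exchange factor, and Bag3, which links Hsp70 clients to autophagy, fell by 1.16 and 0.87 on the log2 scale (adjusted p = 0.0145 and 0.0183). The mitochondrial chaperonin pair Hspd1 and Hspe1 averaged 259 ± 51.3 and 203 ± 34.5 in KO and 594 ± 83.8 and 576 ± 72.9 in WT (log2 differences −1.21 and −1.51, adjusted p = 0.00712 and 0.00201). Hspb1, a small heat shock protein, Cct3, a subunit of the cytosolic chaperonin, and Fkbp4, an Hsp90 co-chaperone, fell by 1.15, 0.85 and 0.90 on the log2 scale (adjusted p = 0.0225, 0.0403 and 0.0403).

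The Hsp90 genes fell too, with smaller log2 differences than the inducible Hsp70 genes, a contrast that was not tested. Hsp90aa1 stood at 2812, 2173, 2468 and 2932 in KO libraries and at 5075, 5234, 4870 and 5055 in WT libraries, a log2 difference of −0.97 ± 0.12 (limma, adjusted p = 0.0031). Hsp90ab1 stood at 2846, 2418, 2506 and 2528 in KO libraries and at 4132, 4131, 4512 and 4143 in WT libraries, a log2 difference of −0.72 ± 0.11 (adjusted p = 0.00941). In both genes the 2 groups were far apart relative to their spread. Hsf1, the transcription factor that drives the heat shock response, stood at 17.6, 33.0, 20.3 and 16.1 in KO libraries and at 66.5, 52.1, 131 and 78.2 in WT libraries, a log2 difference of −1.84 ± 0.36 (adjusted p = 0.0285). The groups did not overlap, and the call held in 2 of the 8 fits with 1 library left out.

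Heat shock elements, the inverted GAA repeats that Hsf1 is known to bind, were looked for in the 250 bases before the start sites given by RefSeq (GRCm38.p6, another build than that of the deposited values, so sequences were matched by symbol). The 3-unit element (GAA, TTC and GAA, or TTC, GAA and TTC, with 2 free bases between neighbours, on either strand) occurred for 2 of the 12 called chaperone genes with a sequence (16.7%), Hspd1 and Hspe1, which share it, and for 0.504% of 8734 genes tested that had a sequence. The 2-unit element (GAA and TTC, or TTC and GAA, spaced alike), which also lies within the longer one and was searched after the data were seen, occurred for 8 of the 12 (66.7%), for 16.4% of the other 61 genes called lower and for 12.3% of all. Hsp90aa1, Hsp90ab1 and Hsf1 had no sequence to search. The 12 genes were taken from a list of chaperones, and its members that were not called were not counted separately. The shares therefore cannot tell whether the elements go with the fall in KO or with being a chaperone. The stretches below show the elements of 6 of the 8 genes in capitals, each on the strand of its gene. Hspa1a has the same letters as Hspa1b, and Hspd1 has those of Hspe1 on the other strand. A match is a description of the letters and not a bound site.
Hspa1b, chr17:34959299-34959378, minus strand: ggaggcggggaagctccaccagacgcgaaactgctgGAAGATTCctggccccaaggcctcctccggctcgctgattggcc
Hspb1, chr5:135887776-135887855, plus strand: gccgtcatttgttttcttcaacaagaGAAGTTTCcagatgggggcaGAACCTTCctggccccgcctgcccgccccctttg
Hspe1, chr1:55088053-55088082, plus strand: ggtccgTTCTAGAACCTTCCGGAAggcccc
Hsph1, chr5:149636351-149636380, minus strand: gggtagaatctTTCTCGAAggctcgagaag
Dnaja1, chr4:40722333-40722362, plus strand: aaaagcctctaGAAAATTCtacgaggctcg
Fkbp4, chr6:128438789-128438818, minus strand: ccgcttctctaGAAAGTTCtccgctcccgc

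**Figure D4:**
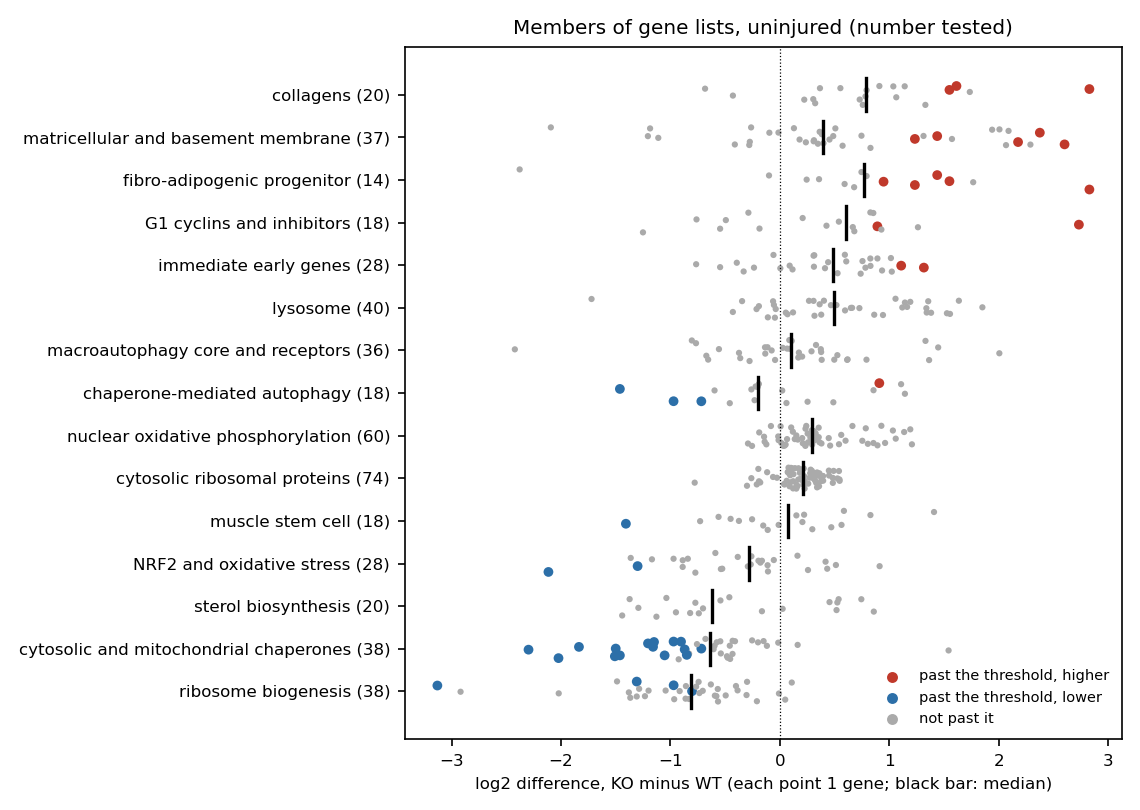
Each point is the log2 difference, KO minus WT, of 1 tested member of 15 gene lists in uninjured cells, with the median as a black bar and members past the threshold in red (higher) or blue (lower). Chaperones and ribosome biogenesis genes lie mostly left of 0, with medians of −0.64 and −0.82, and collagens mostly to the right, with a median of 0.79.

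A few ribosome biogenesis genes, whose products process ribosomal RNA in the nucleolus, fell. Of 38 tested, 4 were lower and none higher (limma; 18 and 0 at an unadjusted p under 0.05; edgeR 2 and 0, DESeq2 9 and 0), with a median of −0.82. A negative log2 difference was found for 36, and all 4 KO libraries lay below all 4 WT libraries for 11. With 1 library left out 1 to 4 were lower, 1 without the mean-variance trend, and 0 with a replicate block (limma, adjusted p). Ncl, which encodes nucleolin, stood at 664, 762, 711 and 765 in KO libraries and at 1269, 1245, 1215 and 1332 in WT libraries, a log2 difference of −0.80 ± 0.12 (adjusted p = 0.00712). The groups were tight and did not overlap. Gnl3, a nucleolar GTPase of stem cells, averaged 424 ± 81.6 in KO and 824 ± 85.7 in WT (log2 difference −0.97 ± 0.16, adjusted p = 0.0130). Wdr43, a factor of the small subunit processome, and Polr1b, the second subunit of RNA polymerase I, fell by 1.31 and 3.13 on the log2 scale (adjusted p = 0.0379 and 0.0319). Polr1b was low, with 1.199 ± 1.05 in KO and 18.4 ± 10.2 in WT, and lost its call in each of the 8 fits with 1 library left out. Rcl1, which cleaves the ribosomal RNA precursor, averaged 47.3 ± 21 in KO and 222 ± 71.5 in WT (log2 difference −2.25 ± 0.37, adjusted p = 0.0139), with WT replicate 1 below the other WT libraries.

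Genes for enzymes that charge tRNA included 3 that fell. Iars, the isoleucyl-tRNA synthetase, stood at 45.0, 31.5, 37.9 and 19.8 in KO libraries and at 130, 121, 157 and 155 in WT libraries, a log2 difference of −2.09 ± 0.28 (limma, adjusted p = 0.00388). Tars and Nars, which charge the tRNAs of threonine and asparagine, averaged 34.8 and 179 in KO and 102 and 369 in WT (log2 differences −1.51 and −1.04, adjusted p = 0.0245 and 0.0387). A list of cytosolic aminoacyl-tRNA synthetases was written after these calls were seen: of 20 tested, 3 were lower and none higher, 17 had a negative log2 difference and the median was −0.55. Eif4ebp1, which restrains translation initiation, averaged 90.1 ± 22.4 in KO and 196 ± 37.5 in WT and was the 1 of 34 initiation factor genes past the threshold, but in none of the 8 fits with 1 library left out. Of 74 cytosolic ribosomal protein genes none passed (limma; 10 higher and 1 lower at an unadjusted p under 0.05; edgeR 0 and 0, DESeq2 4 and 1), and 64 had a positive log2 difference, with a median of 0.21. That median was 0.04 without KO replicate 4.

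Hmox1, which degrades haem and is induced by oxidative stress, fell along with the chaperones. It stood at 115, 160, 130 and 117 in KO libraries and at 375, 563, 708 and 675 in WT libraries, a log2 difference of −2.12 ± 0.22 (limma, adjusted p = 0.000756). The groups did not overlap, and WT replicate 1 was the lowest WT library. Gclc, which limits glutathione synthesis, averaged 35.6 ± 5.46 in KO and 91.8 ± 29.6 in WT (log2 difference −1.30 ± 0.28, adjusted p = 0.0465) and passed in none of the 8 fits with 1 library left out. Of 28 NRF2 and oxidative stress genes, Hmox1 and Gclc were lower and none higher (5 and 1 at an unadjusted p under 0.05; edgeR 1 and 0, DESeq2 3 and 1), with a median of −0.28 (−0.45 to −0.21 with 1 library left out). Of 34 proteasome genes none passed (limma; 6 lower and 0 higher at an unadjusted p under 0.05; edgeR 0 and 0, DESeq2 1 and 0), with a median of −0.19 (−0.28 to −0.11 with 1 library left out).

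Among genes of chaperone-mediated autophagy itself, 3 of 18 tested were lower and 1 higher, with a median of −0.20 (−0.23 to −0.07 with 1 library left out). The 3 that fell, Hsp90aa1, Hsp90ab1 and Dnajb1, are chaperones described above. Itm2b, a membrane protein placed on this list, averaged 1345 ± 173 in KO and 721 ± 124 in WT (log2 difference 0.91 ± 0.16, adjusted p = 0.0206). Hspa8 stood at 5222, 5112, 5756 and 4227 in KO libraries and at 5299, 8161, 9363 and 8397 in WT libraries. Its groups met at WT replicate 1, and the log2 difference of −0.60 ± 0.17 did not pass (limma, adjusted p = 0.130). Its log2 difference ran from −0.77 to −0.29 over the alternative settings and passed in 1 of the 8 fits with 1 library left out.

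Genes of the lysosome and of macroautophagy, the bulk route that encloses cargo in vesicles, gave no call. Of 40 lysosomal genes none passed (limma; 6 higher and 1 lower at an unadjusted p under 0.05; edgeR 0 and 0, DESeq2 2 and 0), while 30 had a positive log2 difference, with a median of 0.49 (0.35 to 0.58 with 1 library left out). Ctsl, a cysteine protease, stood at 1601, 1377, 1582 and 1361 in KO libraries and at 951, 1227, 1001 and 968 in WT libraries, with no overlap and an adjusted p of 0.0852. Ctsd, an aspartic protease, averaged 123 in KO and 50.8 in WT (adjusted p = 0.124). Of 36 macroautophagy genes none passed (limma; 5 higher and 1 lower at an unadjusted p under 0.05; edgeR 0 and 0, DESeq2 0 and 1), with a median of 0.10 (0.02 to 0.18 with 1 library left out).

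Myf5, a myogenic transcription factor held ready in quiescent stem cells, was the 1 of 18 stem cell markers that fell, and none rose (limma; 2 lower and 3 higher at an unadjusted p under 0.05; edgeR 1 and 0, DESeq2 1 and 1). It stood at 39.3, 38.5, 31.3 and 58.6 in KO libraries and at 85.5, 115, 116 and 128 in WT libraries. The groups did not overlap, and the log2 difference was −1.41 ± 0.26 (adjusted p = 0.0245), with a call in 2 of the 8 fits with 1 library left out. Pax7, the defining factor of these cells, stood at 83.4, 74.4, 85.3 and 58.4 in KO libraries and at 111, 71.9, 46.5 and 46.6 in WT libraries, which overlap (adjusted p = 0.837). Myod1, the commitment factor, averaged 102 ± 35.5 in KO and 105 ± 44.5 in WT (adjusted p = 0.991). Chrna1, a subunit of the acetylcholine receptor, averaged 82.0 in KO and 29.8 in WT, and Msc, a repressor of myogenesis, averaged 118 in KO and 194 in WT, but neither passed (adjusted p = 0.0972 and 0.132). Of 24 quiescence genes, Cdkn1c and Col5a3 were higher and Txnip, which binds thioredoxin, was lower (log2 difference −0.98 ± 0.21, adjusted p = 0.0409), with a median of 0.29 (0.18 to 0.30 with 1 library left out).

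Contractile genes moved both ways. Of 21 differentiation and contractile genes tested, Acta1, Acta2 and Actc1 were higher and Myom2 was lower, with a median of 0.61 that was 0.20 without KO replicate 2, 0.26 without KO replicate 1 and 0.99 without KO replicate 4. With 1 library left out, 0 to 2 were higher and 0 to 1 lower, and 12 further genes of the list were too low to be tested. Acta1, the skeletal actin, stood at 4.68, 46.6, 8.97 and 17.9 in KO libraries and at 0.241, 0.109, 0.193 and 0.897 in WT libraries. With these WT values, Acta1 entered the test through KO libraries alone. Actc1, the cardiac actin, stood at 9.39, 105, 8.09 and 32.5 in KO libraries, and WT libraries held 2 counts in all. KO replicate 2 was the highest library for both, and it also held the highest myofibre marker sum, 276. Actc1 entered the test in the same way as Acta1. The call of Acta1 held in 1 of the 8 fits with 1 library left out and that of Actc1 in 3, which is not read as support. Since low genes of this list could enter through KO libraries alone, its median is not read as support either. Myom2, which links filaments at the M-band, averaged 12.7 ± 8.87 in KO and 55.0 ± 19.02 in WT (log2 difference −2.16 ± 0.47, adjusted p = 0.0440).

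Nuclear noncoding RNAs fell in part. Neat1, the scaffold of paraspeckles, stood at 2855, 3693, 2551 and 2256 in KO libraries and at 4719, 4024, 4487 and 4856 in WT libraries (log2 difference −0.69 ± 0.15, limma, adjusted p = 0.0470). Kcnq1ot1, which silences an imprinted domain that contains Cdkn1c, averaged 1163 ± 58.5 in KO and 1804 ± 215 in WT (log2 difference −0.63 ± 0.13, adjusted p = 0.0319). Neither overlapped between groups, and both passed in 1 of the 8 fits with 1 library left out. With Snhg5, 3 of 11 such RNAs were lower and none higher (8 and 0 at an unadjusted p under 0.05; edgeR 0 and 0, DESeq2 5 and 0), with a median of −0.55, and 0 to 1 were lower with 1 library left out.

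The lower genes with the largest differences otherwise belonged to no common list. Ptgds, a prostaglandin D2 synthase, stood at 5.21, 4.04, 2.46 and 4.06 in KO libraries and at 43.6, 46.0, 68.5 and 49.2 in WT libraries, a log2 difference of −3.43 ± 0.43 (limma, adjusted p = 0.0031). Every KO library was far below every WT library. Rab6b, a GTPase of Golgi transport, averaged 1.28 ± 2.03 in KO and 24.8 ± 14.8 in WT, and Actl6a, a subunit of BAF chromatin remodelling complexes, averaged 18.4 ± 16.5 in KO and 110 ± 28.2 in WT. Their log2 differences were −3.65 and −2.90 (adjusted p = 0.0321 and 0.0268), with calls in 1 and 3 of the 8 fits with 1 library left out. Rhoh, a GTPase known from lymphocytes, stood at 75.9, 56.4, 66.4 and 35.7 in KO libraries and at 182, 242, 202 and 203 in WT libraries, a log2 difference of −1.85 ± 0.25 (adjusted p = 0.00398). Lymphocyte marker sums were low in both groups, at 5.08 to 13.3 in KO and 4.74 to 14.3 in WT. Mid1, an X-linked ubiquitin ligase, averaged 51.2 ± 6.75 in KO and 171 ± 52.0 in WT (log2 difference −1.67 ± 0.27, adjusted p = 0.0130).

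Metabolic lists held few calls. Of 60 nuclear genes of oxidative phosphorylation none passed (limma; 13 higher and 0 lower at an unadjusted p under 0.05; edgeR 0 and 0, DESeq2 5 and 0), yet 51 had a positive log2 difference, beside 48.5% of all genes, with a median of 0.29 that was 0.17 without KO replicate 4. Ndufa6, a complex I subunit, averaged 132 in KO and 67.9 in WT (adjusted p = 0.0869). None of the 13 mitochondrially encoded genes passed (limma, edgeR and DESeq2, and 0 at an unadjusted p under 0.05). Of 20 sterol biosynthesis genes none passed (limma; 0 higher and 7 lower at an unadjusted p under 0.05; edgeR 0 and 0, DESeq2 0 and 1), with a median of −0.62, and Msmo1, a sterol oxidase, averaged 54.5 in KO and 143 in WT (adjusted p = 0.0714). Lpl, the lipoprotein lipase, was on no metabolic list and was counted as an adipocyte marker. It stood at 296, 224, 140 and 294 in KO libraries and at 59.3, 86.5, 55.8 and 68.2 in WT libraries, a log2 difference of 1.77 ± 0.26 (limma, adjusted p = 0.00827). Of 3 adipocyte markers tested, Lpl was the 1 that passed, and 2 had a negative log2 difference. No KO library overlapped with WT for Lpl.

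The uninjured differences were then set against those of the injured libraries, with the change in the genotype difference tested in a model of all 24 libraries that gave each group its own variance. At day 1, 19.7% of the 12668 genes were higher in KO and 11.9% lower, at day 4 0.734% and 0.671%. Of the 94 genes higher in uninjured KO cells, 44 were also higher at day 1 and 15 lower, and 9 were higher and 1 lower at day 4. Of the 95 lower genes, 10 were also lower at day 1 and 46 were higher, and 7 were lower and 5 higher at day 4. The uninjured difference itself differed from that of day 1 for 46 of the higher and 76 of the lower genes (10.8% of all genes), and from that of day 4 for 47 and 43 (1.7% of all genes). The model shares its uninjured libraries with the calls it is set against.

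The 15 chaperone genes lower in uninjured KO cells all had a positive log2 difference at day 1. Of the 38 tested, 25 were higher in KO at day 1 and none lower, and for 29 the uninjured difference differed from the day 1 difference (10.8% of all genes). Hspa1b averaged 904 ± 283 in KO and 145 ± 50.6 in WT at day 1, and the uninjured minus day 1 difference was −4.66 ± 0.54 on the log2 scale (limma, adjusted p = 4.11e-06). Hspa8, which did not pass in uninjured cells, was higher in KO by 0.80 at day 1, and that change was −1.39 ± 0.20 (adjusted p = 4.22e-05). At day 4 the chaperone median was −0.01. Hmox1 averaged 1585 ± 177 in KO and 45.4 ± 4.75 in WT at day 1, and the uninjured minus day 1 difference was −7.21 ± 0.30 (adjusted p = 2.24e-15).

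Pthlh differed from the chaperones in this respect. It averaged 427 ± 40.9 in KO and 0.790 ± 1.00 in WT at day 1, so that its difference of 8.03 was close to the uninjured 8.43, and the test of the change gave 0.40 ± 0.59 (limma, adjusted p = 0.737). At day 4 both genotypes expressed it, with 109 ± 25.6 in KO and 84.0 ± 20.4 in WT, and the uninjured minus day 4 difference was 8.05 (adjusted p = 1.08e-08). The log2 difference of Sparc was 0.61 at day 1 and −0.15 at day 4, and both changes from the uninjured 2.18 passed (adjusted p = 0.00116 and 0.000189). Cdkn1a was higher in KO by 0.84 at day 1, and its change from the uninjured difference, 0.05 ± 0.25, did not pass (adjusted p = 0.924). Gpx7 did not stand higher in KO at day 1, with 21.95 ± 5.75 in KO and 32.5 ± 2.22 in WT (uninjured minus day 1 difference 4.36 ± 0.59, adjusted p = 2.70e-05). Myf5 was lower in KO by 0.88 at day 1, and the change of −0.53 ± 0.36 from day 1 did not pass (adjusted p = 0.384).

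**Figure D5:**
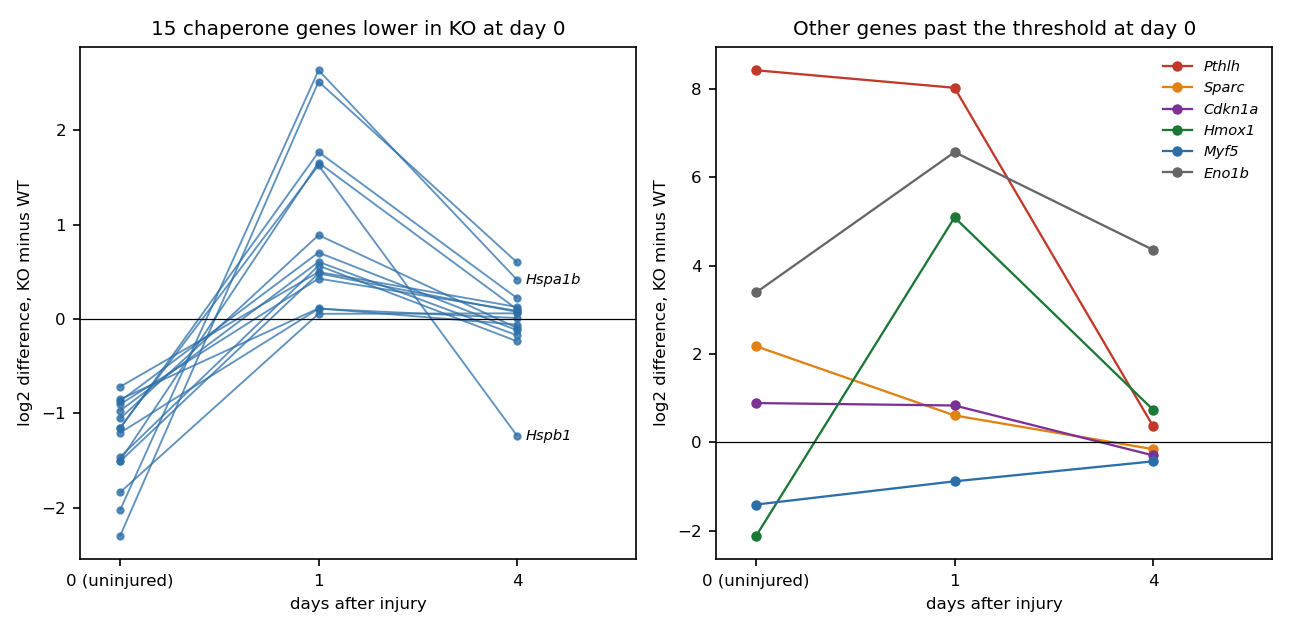
Log2 difference, KO minus WT, at 0 (uninjured), 1 and 4 days after injury for the 15 chaperone genes lower in KO at day 0 (left) and for 6 other genes past the threshold at day 0 (right). All 15 chaperones lie below 0 at day 0 and above 0 at day 1, while Pthlh stays above 8 at day 1 and falls to 0.37 at day 4.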

How the data were processed

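The authors deposited one table of normalised read counts, a linear signal for 17111 genes in 24 libraries; per the labels, cDNA came from the SMART-Seq v4 kit. The submitters' processing notes name FastQC, STAR, RSEM and limma, and the build mm39, with no order given; strand use is not given in the sources used here. From the deposited signal, whole counts (plus 0.5) came back for 100% of values within 0.02. Totals were 11.58 to 16.88 M in the 8 libraries, and floors of 3 counts cover counting error only.

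The main model was limma 3.58.1 (R 4.3.3) with a mean-variance trend on log2(value + 1) of the 8 uninjured libraries, the genotype as its only term, two-sided, adjusted by Benjamini-Hochberg, threshold 0.05; all adjusted p-values are from limma. Changes against days 1 and 4 used interaction contrasts over 24 libraries with 1 variance weight per group. Alternatives were other pseudocounts and filters, quantile normalization, no trend, library weights, all 24 libraries, a replicate block, each library left out, and 2 count models fitted to the recovered reads (DESeq2 1.42.0, edgeR 4.0.16).

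The members and the gene lists were chosen with earlier results of these data known. Named genes were Lamp2 and 17 others fixed by name, the 20 largest differences in each direction (past the threshold, no overlap, mean of at least 8, no predicted genes), list members past the threshold, the 4 smallest p per list, and the 10 strongest interactions; the text names a part. Tars, Nars, Klk1b1, Klk1b24, Klk1b27, Kiss1, Hspa4, Dnaja2, Stip1, Cxcr4, Pdgfra, Ly6a, Serping1, Lyz2 and Ptprc fall outside this rule and were chosen after their values were seen. On simulated counts for this comparison (12668 genes, 11907 tested), the model made 22 calls, 2 of them unchanged genes, and it found 20.3% of the genes changed 4-fold, 9.7% of those changed 2-fold, and 1.6% at 1.5-fold. Names of 45 genes with a missing or date-like symbol were looked up by identifier.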

Additional observations from a re-analysis of the deposited data

Results flagged for a closer look

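Of 212 groups of 4 libraries examined for the genes named, 20 held 1 library far from the other 3, where chance gives about 1 in 20 groups. In KO, replicate 1 was high for Mki67 at 43.4 and Acta2 at 634, replicate 2 was high for Mdfic at 305 and low for Pthlh at 464 and Sparc at 1461, replicate 3 was high for Nars at 241, and replicate 4 was low for Pmp22 at 491 and Chrna1 at 39.1 (normalised read counts). In WT, replicate 1 was low for Rcl1 at 115. It was also flagged high for Klk1b21 at 0.103, but this is 1 count, below the level of 3 counts, and is given no weight. Replicate 2 of WT was high for Mki67 at 2.23 and low for Plaa at 17.04 and Nr4a3 at 64.3. Replicate 3 of WT was high for Klk1 at 6.27 and Hsp90ab1 at 4512 and low for Hmgcs1 at 13.2. Replicate 4 of WT was high for Ndufs5-ps at 1.89, Frmd4b at 12.3, Acta1 at 0.897 and Gnl3 at 952.

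Over all genes tested, the uninjured genotype difference differed from that of day 1 for 1373 and from that of day 4 for 215. Among the few examined singly (7 chosen by name and the 10 strongest of those called in uninjured cells per day), for 18 genes the uninjured genotype difference differed from that of day 1 in the interaction contrast (limma, adjusted p under 0.05, values are the uninjured minus the day 1 log2 difference). It was below that of day 1 for Hmox1 by −7.21, Hspa1b by −4.66, Txnip by −3.87, Rcl1 by −3.24, Hsph1 by −3.16, Hspa4l by −2.93, Actl6a by −2.91, Mdfic by −2.77, Neat1 by −1.99, Dnaja1 by −1.94, Hsp90aa1 by −1.58, Hspa8 by −1.39 and Hsp90ab1 by −1.22. It was above that of day 1 for Gpx7 by 4.36, Gria1 by 3.64, Pax7 by 1.59, Sparc by 1.57 and Klk1b22 by 1.56. Gria1 and Klk1b22 entered the test through KO libraries alone, so their passing is not read as support. The 10 strongest per day were picked among genes called on the same uninjured libraries, so their passing was favoured in advance.

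Against day 4, 18 of the genes examined singly differed. The uninjured difference was above that of day 4 for Pthlh by 8.05, Klk1b21 by 5.99, Tmod1 by 4.49, Gria1 by 4.32, Gpx7 by 3.99, Klk1b22 by 3.16, Sparc by 2.33 and Cdkn1a by 1.18. Of these, Klk1b21, Gria1 and Klk1b22 entered the test through KO libraries alone, and their passing is not read as support. The uninjured difference was below that of day 4 for Mid1 by −3.68, Actl6a by −2.99, Hmox1 by −2.86, Hspa1b by −2.44, Rcl1 by −1.89, Hsph1 by −1.60, Hspa4l by −1.38, Neat1 by −0.99, Dnaja1 by −0.96 and Hsp90ab1 by −0.85. No explanation of these differences was tested.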

How the results depend on the processing

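The counts of 94 higher and 95 lower genes in uninjured KO cells depended on the model. They were 35 and 34 with no filter, 51 and 21 without the mean-variance trend, 60 and 45 with edgeR, and 257 and 263 with DESeq2. With all 24 libraries in the model they were 818 and 884. That model used 1 variance per gene for all days, although the uninjured libraries had the lowest group weights. Leaving out 1 library gave 29 (without KO replicate 3) to 52 higher and 31 (without WT replicate 4) to 59 lower genes, with 21 and 23 passing in all 8 such fits. The replicate numbers showed no visible pairing, since deviations of same-numbered KO and WT libraries correlated at −0.025 to 0.013. That does not show whether same-numbered libraries were handled together. A replicate block gave 26 higher and 21 lower genes. Of 86 named genes past the threshold, 15 kept their call under all 19 settings and none changed direction. Genes with an uninjured difference below that of day 1 numbered 908, and 525 after quantile normalization. Those above that of day 4 numbered 111, then 299 without weights and 207 with edgeR. Those below that of day 4 numbered 104, then 349 without weights, 229 with edgeR and 53 to 89 with 1 library left out. Myod1 had a log2 difference of −0.02, which was 0.096 after quantile normalization and −0.29 to 0.23 with 1 library left out. The change of Pax7 from day 4, −0.03, was 0.0151 after quantile normalization and −0.18 to 0.23 with 1 library left out. The 2-unit heat shock element occurred in 8 called chaperone genes, the 3-unit element in 2. The cause of these shifts was not tested. Depth limits genes near 3 counts, and the simulated data show that most changes of 4-fold or less are missed at this size.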

Other observations

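Several lists that the comparisons above do not describe held few calls. Of 25 interferon response genes tested, 1 was lower in KO and none higher (limma; 4 lower and 0 higher at an unadjusted p under 0.05; edgeR 0 and 0, DESeq2 1 and 0), with a median log2 difference of −0.05. It was Ifi35, an interferon-induced protein, which averaged 24.01 ± 11.4 in KO and 92.8 ± 20.2 in WT (SD, n = 4 each; adjusted p = 0.0286). Igtp, an interferon-inducible GTPase, averaged 7.32 ± 4.32 in KO and 45.2 ± 13.6 in WT and also fell (log2 difference −2.70 ± 0.59, adjusted p = 0.0440). Of 18 Notch pathway genes none passed (limma; 0 higher and 1 lower at an unadjusted p under 0.05; edgeR 0 and 0, DESeq2 0 and 0), with a median of −0.17. Of 32 genes of TGF-beta, BMP and myostatin signalling none passed (limma; 2 higher and 3 lower at an unadjusted p under 0.05; edgeR 0 and 0, DESeq2 0 and 1), with a median of −0.20.

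Some genes had nearly all their counts in KO libraries and entered the test through them alone, so no p-value is given for them. Gria1, a glutamate receptor subunit, averaged 19.1 ± 7.06 in KO, where WT libraries held 2 counts in all, and Lrrtm3, a synaptic adhesion protein, averaged 21.9 ± 9.34 in KO, where WT libraries held 3 counts in all. Kiss1, which encodes the peptide kisspeptin, had 0 counts in WT and averaged 3.48 ± 0.543 in KO, at least 13.9-fold higher (against 3 counts per library). Among genes counted in both genotypes, Tgm2, a transglutaminase that crosslinks proteins, averaged 31.9 ± 18.2 in KO and 2.45 ± 2.61 in WT (log2 difference 3.38 ± 0.72, limma, adjusted p = 0.0409).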
